A study of Bos taurus with 11 samples.

Results

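Transcript levels of 10 genes of insulin receptor, AKT and FOXO signalling were examined in the mammary parenchyma of preweaned Holstein heifer calves. The genes were the receptor gene INSR, the adaptor genes IRS1 and IRS2, the phosphoinositide 3-kinase (PI3K) subunit genes PIK3R1 and PIK3CA, the kinase genes AKT1 and AKT2, the transcription factor genes FOXO1 and FOXO3, and TXNIP. They were chosen by symbol, and each was read by 1 probe set that carried its symbol alone, so 10 of 18444 genes with such a probe set are described. Their probe sets were 12883595 (INSR), 12783512 (IRS1), 12711013 (IRS2), 12786990 (PIK3R1), 12683464 (PIK3CA), 12791587 (AKT1), 12758675 (AKT2), 12709252 (FOXO1), 12900979 (FOXO3) and 12837074 (TXNIP).

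On the elevated diet, 6 calves drank 8.4 L of milk replacer a day over 3 meals, which supplied 5.9 ± 0.2 (SE) Mcal of metabolisable energy. On the restricted diet, 5 calves drank 4 L a day over 2 meals, for 2.8 ± 0.2 (SE) Mcal, so the number of meals cannot be told apart from the amount fed. All calves were female, drank a replacer with 28% protein and 15% fat, had starter grain on offer from day 18 and were killed at 54 ± 2 days after a morning feed. The time between that meal and tissue collection is not given in the sources used here, and no insulin or glucose value was used. A sixth restricted calf gave no sample because its parenchyma was too small to be parted from the fat pad. Each array held RNA of 1 calf, and values are log2 RMA signals, on which a difference of 1 is a 2-fold difference. Differences below are elevated minus restricted, and the test is limma over all 26773 probe sets with Benjamini-Hochberg adjustment at 0.05.

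Insulin binds its receptor, a tyrosine kinase, which phosphorylates the IRS adaptors. These recruit PI3K, whose lipid product brings AKT to the membrane, and active AKT phosphorylates FOXO factors and keeps them out of the nucleus. FOXO factors left in the nucleus switch on genes of fasting metabolism and of cell cycle arrest, and in several tissues IRS2 and INSR are among their targets. TXNIP encodes an arrestin-like protein that restrains glucose uptake and binds thioredoxin, and its transcription is driven by the glucose-sensing factors MondoA and ChREBP. In adipocytes and muscle AKT2 carries much of the metabolic action of insulin, while AKT1 is tied more to growth, as worked out mainly in mice. Most of this pathway runs on phosphorylation, which an RNA array does not read.

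Array medians lay between 6.37 and 6.45, and correlations between arrays ran from 0.964 to 0.990. No marker of another cell type passed the test, but several lists leaned one way. The 15 adipocyte markers were all lower on average in elevated calves, with list means of 7.51 to 9.27 in elevated and 8.69 to 10.95 in restricted calves. The upper end was restricted 2 (10.95) and restricted 4 (10.40). Of 14 luminal epithelial markers 13 were higher on average in elevated calves, with list means of 8.56 to 9.48 in elevated and 6.57 to 9.04 in restricted calves, and the lowest means were again those of restricted 2 (6.57) and restricted 4 (8.09). EPCAM, a defining epithelial marker, read 8.85 to 9.83 in elevated calves and 8.14 to 9.47 in restricted calves, apart from 5.98 in restricted 2. All 9 skeletal muscle markers averaged higher in elevated calves, with list means of 5.07 to 6.90 in elevated and 4.82 to 5.40 in restricted calves, and all 5 macrophage markers averaged lower, with list means of 6.98 to 7.47 in elevated and 7.26 to 7.77 in restricted calves. Elevated 5 had the highest means of skeletal muscle markers (6.90, against 4.82 to 6.07 in the other 10 calves) and of endothelial markers (10.08, against 9.07 to 9.77). The tissue is a mixture, so fewer cells of a type and less RNA per cell cannot be told apart.

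None of the 10 genes passed the test, where 0.00747% of all probe sets did (2 of 26773). At an unadjusted p under 0.05 there were 2 of 10, TXNIP on the higher and AKT2 on the lower side, where 10.3% of all probe sets reached that level. Groups overlapped for all 10 genes, and 1.28% of all probe sets had groups that did not. In elevated calves 6 of the 10 genes averaged higher and 4 lower. Their median difference was 0.021, against 0.0031 over all probe sets, and their median absolute difference was 0.12, against 0.11 over all probe sets. The median size of these differences was therefore close to that of an ordinary probe set on the array. Single genes ran from percentile 1.33 (PIK3CA) to percentile 89.5 (AKT2 and TXNIP) of the absolute differences over all probe sets. The smallest adjusted p among the 10 genes was 0.480 in limma, and it belonged to TXNIP and AKT2.

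**Figure D1:**
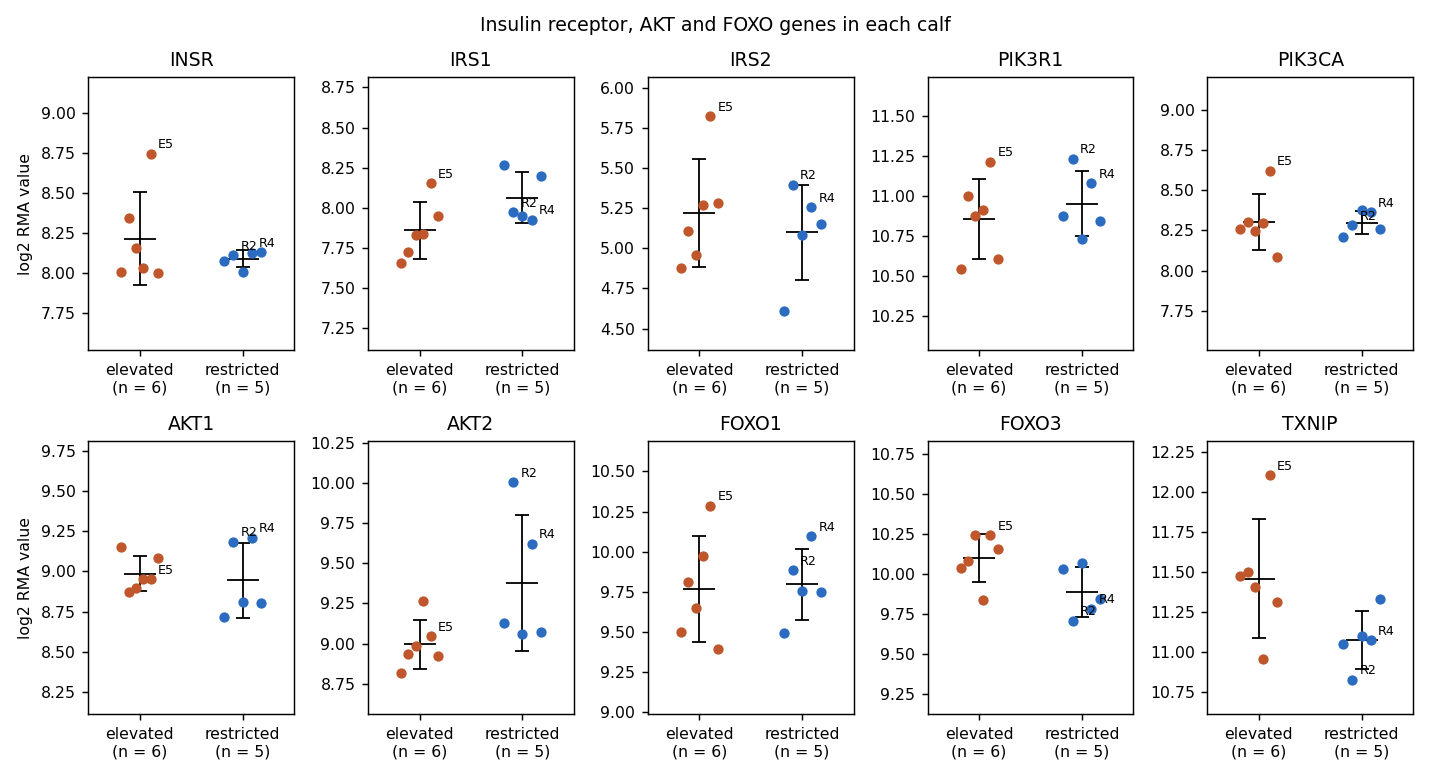
Log2 RMA value of each of the 10 genes (vertical axes, all spanning the same number of log2 units) in 6 elevated (left) and 5 restricted (right) calves. Points are calves, black lines are means with SD, and E5, R2 and R4 mark elevated 5, restricted 2 and restricted 4. The groups overlap in every panel, AKT2 is high in restricted 2 and restricted 4, and elevated 5 is the top calf for INSR, IRS2, PIK3CA, FOXO1 and TXNIP.

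INSR, which encodes the receptor itself, read from 8.00 to 8.74 with a median of 8.09 in elevated calves. In restricted calves 1 to 5 it read 8.07, 8.11, 8.00, 8.13 and 8.13. The restricted calves were tightly grouped and lay inside the elevated range, and elevated 5 stood at the top. Elevated calves averaged 8.21 ± 0.29 (SD, n = 6) and restricted calves 8.09 ± 0.052 (SD, n = 5). The difference was 0.12 ± 0.13 (SE; limma adjusted p = 0.779), and without elevated 5 it was 0.018. Its 95% interval over all calves ran from -0.16 to 0.41, that is from 0.896-fold to 1.33-fold, so a larger difference than that in receptor transcript lies outside the interval.

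IRS1 and IRS2 encode the adaptors that couple the receptor to PI3K. IRS1 read 7.66 to 8.15 in elevated calves, with a median of 7.83. Restricted calves 1 to 5 read 8.27, 7.97, 7.95, 7.93 and 8.20. Of the 6 elevated calves 4 lay below every restricted calf, and elevated 5 was the highest elevated calf. The difference was -0.20 ± 0.10 (SE; unadjusted p = 0.0752 and adjusted p = 0.542 in limma), with a 95% interval from -0.43 to 0.024. It was -0.26 without elevated 5 (adjusted p = 0.436) and -0.28 without restricted 2 and restricted 4 (adjusted p = 0.567), so IRS1 kept its direction in both reduced sets of calves and still missed the threshold.

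IRS2 gave low signals, with values of 4.88 to 5.82 in elevated and 4.61 to 5.40 in restricted calves, under the array medians, where RMA compresses differences. Elevated calves averaged 5.22 ± 0.34 (SD, n = 6) and restricted calves 5.10 ± 0.30 (SD, n = 5), with a difference of 0.12 ± 0.18 (SE; limma adjusted p = 0.850). The top value was that of elevated 5 and the bottom one that of restricted 1. Without elevated 5 the difference was 0.00031, and without restricted 1 it was -0.0016. The within-array log2 difference of IRS1 minus IRS2 was 2.64 ± 0.19 (mean and SD) in elevated calves, against 2.96 ± 0.43 in restricted calves, with overlapping ranges of 2.33 to 2.87 and 2.57 to 3.66. Probe sets differ in brightness for reasons other than transcript number, so only its gap of -0.33 between the diets bears on the calves. Restricted 1 held the top value of 3.66 and restricted 2 to 5 read 2.57 to 3.05, so the gap leans on restricted 1.

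The PI3K subunit genes had small differences. PIK3R1, which encodes the regulatory subunit p85-alpha, read 10.55 to 11.21 in elevated and 10.73 to 11.23 in restricted calves. Its difference was -0.093 ± 0.13 (SE; limma adjusted p = 0.844), and it was 0.043 without restricted 2 and restricted 4. PIK3CA, which encodes the catalytic subunit p110-alpha, read 8.09 to 8.62 in elevated and 8.21 to 8.37 in restricted calves. Its difference of 0.0028 was the smallest of the 10, with a 95% interval from -0.20 to 0.20, or 0.872-fold to 1.15-fold. Elevated 5 gave the highest PIK3CA value and elevated 6 the lowest.

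AKT2 encodes the AKT kinase best known from insulin action in fat and muscle. It read from 8.82 to 9.27 in elevated calves, with a median of 8.96. In restricted calves 1 to 5 it read 9.13, 10.00, 9.06, 9.62 and 9.07. Restricted 2 and restricted 4 stood well above the other 9 calves, and the remaining restricted calves lay inside the elevated range, although 5 of the 6 elevated calves lay below the lowest restricted calf. Elevated calves averaged 9.00 ± 0.15 (SD, n = 6) and restricted calves 9.38 ± 0.42 (SD, n = 5), with a difference of -0.38 ± 0.17 (SE; unadjusted p = 0.0470 and adjusted p = 0.480 in limma). Without restricted 2 it was -0.22, and without both calves it was -0.090 (limma adjusted p = 0.845).

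The AKT2 values followed the cell type markers of the calves. AKT2 correlated with the adipocyte marker mean at a Pearson r of 0.92 and a Spearman rho of 0.85 over 11 calves. Restricted 2 and restricted 4 were farthest out on the adipocyte mean, and among the 9 other calves r was 0.68. With the luminal marker mean r was -0.96 over 11 calves and -0.81 over the 9. These coefficients describe values that share the same arrays and normalisation, and the part of the tissue's adipocyte signal in the AKT2 difference was not tested beyond leaving out these calves.

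AKT1 is the paralogue of AKT2 tied more to growth. It read 8.87 to 9.15 in elevated calves and 8.71, 9.19, 8.81, 9.21 and 8.80 in restricted calves 1 to 5. Restricted calves split, with restricted 2 and restricted 4 above every elevated calf and the other restricted calves below every elevated calf. The difference was 0.040 ± 0.11 (SE; limma adjusted p = 0.925). Without restricted 2 and restricted 4 it was 0.21, with an unadjusted p of 0.0381 and an adjusted p of 0.536 in limma. The within-array log2 difference of AKT1 minus AKT2 was -0.011 ± 0.22 (mean and SD) in elevated calves, against -0.43 ± 0.23 in restricted calves. Its ranges of -0.31 to 0.33 and -0.82 to -0.25 overlapped only through elevated 4, the elevated calf with the highest adipocyte mean (9.27).

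**Figure D2:**
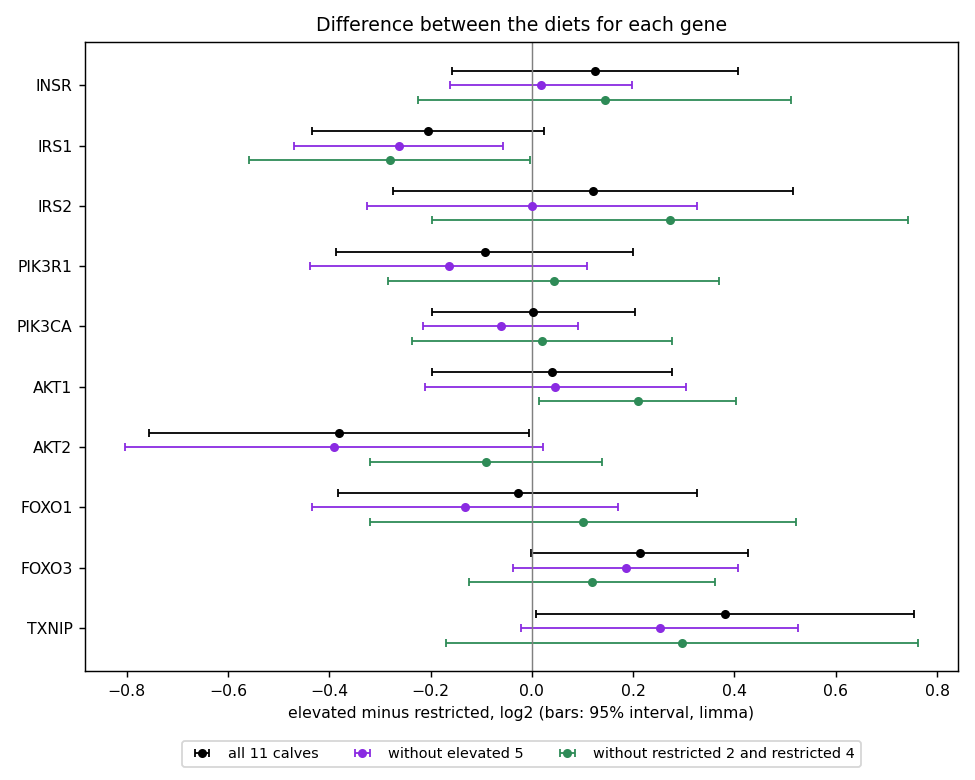
Difference between the diets for each gene (horizontal axis, elevated minus restricted, log2), with limma 95% intervals, for all 11 calves, without elevated 5, and without restricted 2 and restricted 4. The AKT2 difference is -0.090 without the 2 restricted calves and -0.38 with all calves, and the INSR difference is 0.018 without elevated 5.

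FOXO1 and FOXO3 encode the transcription factors that AKT holds in check, and over the 11 calves their values correlated at r = -0.23 (rho = -0.29), and at r = -0.64 without elevated 5 and elevated 6. FOXO3 read 9.84 to 10.25 in elevated calves, with a median of 10.12. Restricted calves 1 to 5 read 10.03, 9.71, 10.07, 9.78 and 9.85. Of the 6 elevated calves 4 lay above every restricted calf, and elevated 4 was the low elevated calf. The difference was 0.21 ± 0.098 (SE; unadjusted p = 0.0514 and adjusted p = 0.490 in limma), or 1.16-fold with a 95% interval from 0.999-fold to 1.34-fold. It was 0.17 without restricted 2 and 0.12 without restricted 2 and restricted 4. FOXO3 correlated with the adipocyte mean at r = -0.75 (rho = -0.72) over 11 calves and at r = -0.42 over the 9 calves that remained without those 2.

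FOXO1 ranged from 9.39 to 10.29 in elevated and from 9.49 to 10.09 in restricted calves, so the restricted calves all lay inside the elevated range. Its difference was -0.028 ± 0.16 (SE; limma adjusted p = 0.966), with a 95% interval from -0.38 to 0.33. The sign changed when elevated 1, elevated 6 or restricted 4 was left out. Its r with the luminal mean was -0.47 over all calves (rho = -0.86) and -0.73 over 9, and its r with the mean of 6 fibroblast markers was 0.74 over 11 calves and 0.84 without the 2 calves farthest out on that mean.

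TXNIP had the largest positive difference of the 10 genes. It read from 10.96 to 12.10 in elevated calves, with a median of 11.44. In restricted calves 1 to 5 it read 11.05, 10.83, 11.10, 11.07 and 11.33. Of the 6 elevated calves 4 lay above every restricted calf, elevated 5 was far above the rest, and elevated 4 (10.96) lay below all restricted calves but restricted 2. Elevated calves averaged 11.46 ± 0.37 (SD, n = 6) and restricted calves 11.08 ± 0.18 (SD, n = 5). The difference was 0.38 ± 0.17 (SE; unadjusted p = 0.0460 and adjusted p = 0.480 in limma), or 1.30-fold with a 95% interval from 1.01-fold to 1.69-fold. It was 0.25 without elevated 5, 0.30 without restricted 2 and restricted 4, and 0.17 without all of these calves (adjusted p = 0.545, 0.732 and 0.774). When elevated 4 was left out it was 0.48. TXNIP stayed higher in elevated calves in each of these sets and passed the threshold in none of them. Its values correlated with the adipocyte mean at r = -0.54 (rho = -0.78) over 11 calves, and at r = -0.26 without restricted 2 and restricted 4.

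**Figure D3:**
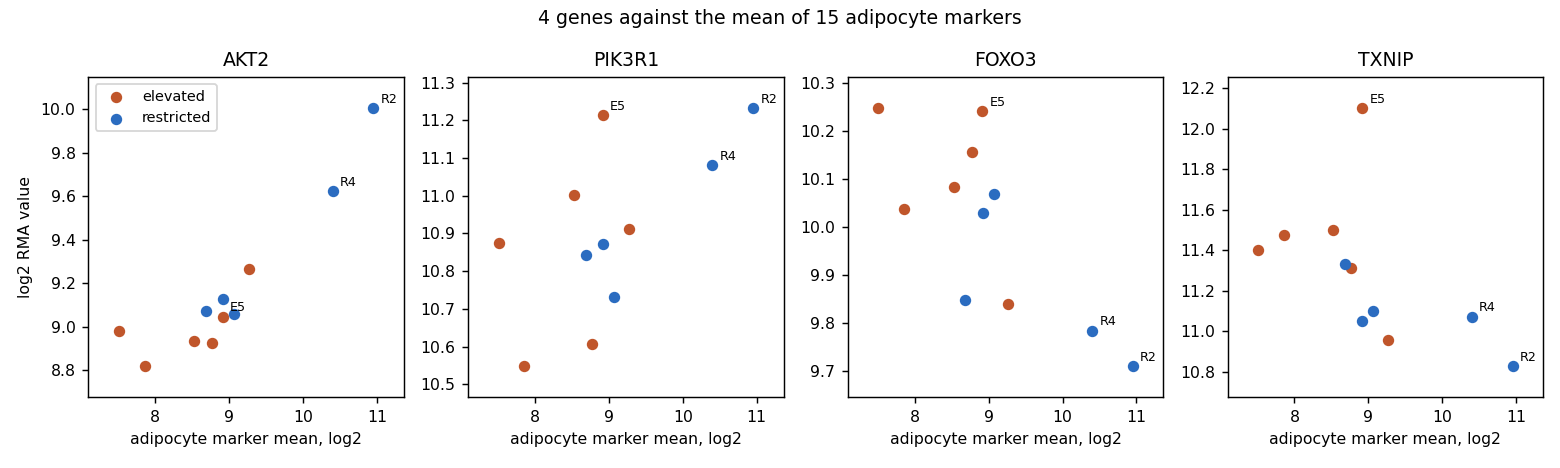
Log2 RMA values of AKT2, PIK3R1, FOXO3 and TXNIP (vertical axes, each on its own range) against the mean of 15 adipocyte markers (horizontal axis, log2) in elevated and restricted calves, 1 point per calf. AKT2 climbs with the adipocyte mean (r = 0.92 over 11 calves) and FOXO3 declines (r = -0.75). TXNIP also declines (r = -0.54, rho = -0.78) and is high in elevated 5 (E5) at a middling adipocyte mean.

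Some calves were extreme for several of the genes. Elevated 5 was the highest of all 11 calves for 5 of the 10 genes (INSR, IRS2, PIK3CA, FOXO1 and TXNIP), where it was the highest for 16.9% of all probe sets. It was the highest elevated calf for 7 of the 10, IRS1 and PIK3R1 included, where it held that place for 24.8% of all probe sets. Restricted 2 was the highest calf for PIK3R1 and AKT2 and the lowest for FOXO3 and TXNIP, where it was the highest for 15.4% and the lowest for 13.8% of all probe sets. These counts describe 1 animal each and carry no test. Elevated 5 also had the highest muscle and endothelial marker means given above, and the part of that tissue in its values was not tested. Over 11 calves the muscle mean correlated with INSR at r = 0.77 (rho = 0.53) and with TXNIP at r = 0.71 (rho = 0.35), and without elevated 3 and elevated 5, the calves farthest out on it, r was 0.098 and 0.024.

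**Figure D4:**
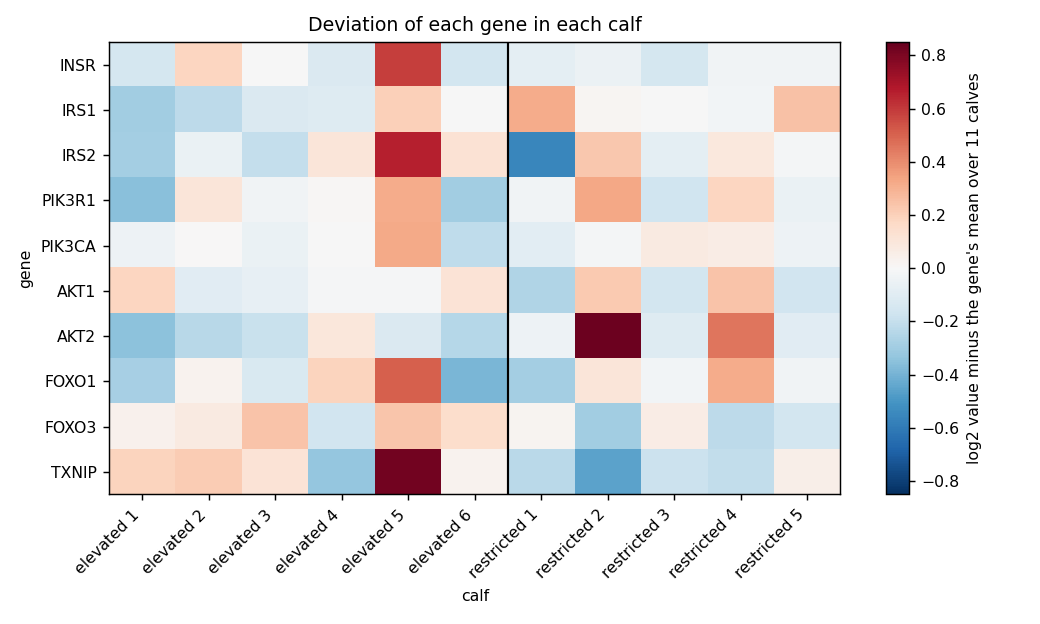
Deviation of each gene (rows) in each calf (columns, elevated left of the line and restricted right of it) from that gene's mean over 11 calves, in log2 units (colour scale). Elevated 5 is above the mean for INSR, IRS2, FOXO1 and TXNIP, and restricted 2 and restricted 4 are above it for AKT1 and AKT2 and below it for FOXO3.

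Several pairs of the genes varied together across calves. PIK3CA and FOXO1 varied together (r = 0.86, rho = 0.85 over 11 calves, and r = 0.69 without the 2 calves farthest out on PIK3CA), as did PIK3R1 and FOXO1 (r = 0.81, rho = 0.80, and 0.78 without 2 calves). FOXO3 and TXNIP also varied together (r = 0.72, rho = 0.75, and 0.60 without 2 calves). AKT2 ran against FOXO3 (r = -0.77, rho = -0.78, and -0.50 without restricted 2 and restricted 4) and against TXNIP (r = -0.60, rho = -0.78, and -0.44 without them). The link of INSR with TXNIP (r = 0.79) rested on elevated 5 and elevated 2, since r was -0.069 among the 9 other calves. These coefficients are descriptions over 11 calves that include both diets, and 45 pairs were computed.

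Among 17792 other probe sets with a named gene, those with the closest profiles over the 11 calves were looked up for each gene. For AKT2 they were GPAT3, an acyltransferase of triglyceride synthesis (r = 0.99), and RBP4, the retinol carrier (r = 0.98), which differed by -0.83 and -0.52 between the diets. For PIK3R1 they were ELN, which encodes elastin (r = 0.97), and TGFBR2, a TGF-beta receptor (r = 0.96). For FOXO1 they were PROCR (r = 0.97), the endothelial protein C receptor, and ABCC9 (r = 0.95), a subunit of ATP-sensitive potassium channels. FOXO3 lay closest to POR, the electron donor of cytochrome P450 enzymes (r = 0.94), and TXNIP to the deubiquitinase gene OTUD1 (r = 0.97) and to USP53 (r = 0.97). Without the 2 calves farthest out, r was 0.89 for GPAT3, 0.96 for ELN, 0.95 for PROCR, 0.88 for POR and 0.95 for OTUD1. INSR lay closest to BICRAL (r = 0.97), but r was 0.76 without elevated 2 and elevated 5. The highest of 17792 coefficients over 11 calves is large by construction, and no test was made.

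The wider pathway was read from 7 lists with 100 genes, of which 95 had a probe set of their own. None of the 95 passed the test, where 0.00747% of all probe sets did, and the smallest limma adjusted p was 0.266. At an unadjusted p under 0.05 there were 20 of 95, of which 10 were higher and 10 lower, beside 10.3% of all probe sets. Without restricted 2 and restricted 4 there were 10 of 95, beside 8.72% of all probe sets. The lists' median difference was -0.0090, with 44 genes higher and 51 lower. The remaining genes of the lists were not analysed here.

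At the receptor, IGF1R, the receptor gene for insulin-like growth factor, read 9.37 to 10.10 in elevated and 8.61 to 9.34 in restricted calves, a difference of 0.49 ± 0.16 (SE; limma adjusted p = 0.363). The groups did not overlap, and without restricted 2 and restricted 4 the difference was 0.31. CBL, a ubiquitin ligase that acts on activated receptors, differed by -0.28 ± 0.075 (SE; limma adjusted p = 0.293), also without overlap, at 9.06 to 9.29 in elevated and 9.34 to 9.61 in restricted calves. In the list of adaptors and brakes 7 of 14 genes averaged higher, with a median of 0.0048 that was -0.033 without elevated 5. The receptor inhibitors GRB10, GRB14 and the phosphatase gene PTPN1 differed by 0.17, 0.30 and 0.16. GRB10 differed by 0.071 without elevated 5 and by 0.0072 without restricted 2 and restricted 4, and PTPN1 by 0.056 without those 2 restricted calves. GRB14 read 6.19 to 6.63 in elevated calves and 4.57 to 7.06 in restricted calves, with restricted 2 and restricted 4 (4.57 and 5.85) the lowest, and it differed by -0.33 without these 2 calves.

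Of the 11 other PI3K subunit genes 7 averaged higher, with a median of 0.061. Without restricted 2 and restricted 4 there were 4 higher and 7 lower, with a median of -0.016, and without elevated 5 the median was 0.035. PIK3R3, which encodes the regulatory subunit p55-gamma, had the smallest p of all pathway genes. It read 7.13 to 7.64 in elevated calves and 7.55, 7.96, 7.96, 8.05 and 7.64 in restricted calves 1 to 5, so the ranges overlapped at their edges. Its difference was -0.49 ± 0.12 (SE; unadjusted p = 0.0017 and adjusted p = 0.266 in limma), and it was -0.37 without restricted 2 and restricted 4. The catalytic subunit genes PIK3CB, PIK3CD and PIK3CG differed by 0.16, 0.20 and 0.14, and the regulatory subunit gene PIK3R2 by -0.072. Without restricted 2 and restricted 4 the PIK3CB difference was -0.018 and that of PIK3CD 0.045, and without elevated 5 that of PIK3R2 was -0.0078.

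Of 7 phosphatase genes that limit PI3K lipids or AKT 6 averaged higher, with a median of 0.17. The median was 0.093 without elevated 5, and 0.061 without restricted 2 and restricted 4, where 5 of 7 averaged higher. INPPL1, which encodes the 5-phosphatase SHIP2, read 8.50 to 8.88 in elevated and 8.23 to 8.45 in restricted calves, with no overlap. Its difference was 0.33 ± 0.084 (SE; limma adjusted p = 0.275), and it was 0.27 without restricted 2 and restricted 4 and 0.29 without elevated 5. INPP5D, INPP4B and PHLPP2 differed by 0.069, 0.17 and 0.26. INPP4B differed by 0.061 and PHLPP2 by 0.088 without restricted 2 and restricted 4, and INPP4B by 0.053 and INPP5D by 0.13 without elevated 5.

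Around AKT, 4 of 14 genes averaged higher and 10 lower, with a median of -0.026. Without restricted 2 and restricted 4 there were 6 higher and 8 lower, and without these and elevated 5 there were 7 of each. SGK1 and SGK3 encode kinases that share targets with AKT, FOXO3 among them. SGK1 differed by -0.49 ± 0.15 and SGK3 by -0.34 ± 0.10 (SE; limma adjusted p = 0.334 for both). They differed by -0.34 and -0.24 without restricted 2 and restricted 4, and by -0.40 and -0.33 without elevated 5. SGK3 read 6.44 to 6.89 in elevated and 6.93 to 7.31 in restricted calves with no overlap, and SGK1 overlapped between the groups. PDPK1, the kinase that activates AKT, differed by -0.0013, RICTOR of the mTORC2 complex by 0.048 and the pseudokinase gene TRIB3 by -0.093. Without restricted 2 and restricted 4 these were -0.024, 0.091 and -0.030, and without elevated 5 they were -0.044, 0.0080 and -0.12. TRIB3 gave low signals under the array medians, at 3.71 to 4.67 in elevated and 4.24 to 4.73 in restricted calves. Of 12 AKT substrate genes 10 averaged lower, with a median of -0.073. Without elevated 5 there were 11 lower, with a median of -0.12. Without restricted 2 and restricted 4 there were 9 lower, with a median of -0.050. Without all of these calves 8 were lower and 4 higher. GSK3B, TSC2 and TBC1D4 differed by -0.14, -0.13 and -0.23, and FOXO4 by -0.031. GSK3B differed by -0.055, TBC1D4 by -0.095 and FOXO4 by -0.11 without restricted 2 and restricted 4, and FOXO4 by -0.12 without elevated 5. PFKFB2, which makes the activator of glycolysis fructose 2,6-bisphosphate, differed by 0.40 (limma adjusted p = 0.480), and by 0.17 without restricted 2 and restricted 4. PDE3B, the phosphodiesterase of insulin's antilipolytic action, differed by -0.25, and by 0.27 without restricted 2 and restricted 4, where it read 9.31 and 8.81.

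Of 23 known FOXO target genes measured, 10 averaged higher and 13 lower, with a median of -0.052 over all calves and 0.054 without restricted 2 and restricted 4. Unadjusted p-values were under 0.05 for 3 higher and 5 lower genes, beside 4.95% and 5.33% of all probe sets, and none passed the test. These 8 of 23 became 5 without elevated 5, beside 9.70% of all probe sets. They became 3 without restricted 2 and restricted 4, beside 8.72% of all probe sets. GADD45A, a growth arrest gene, read 6.86 to 7.27 in elevated and 7.27 to 8.03 in restricted calves and differed by -0.52 ± 0.13 (SE; limma adjusted p = 0.269). SESN3, a stress-induced regulator of growth signalling, differed by -0.30, and CCNG2, a cyclin of quiescent cells, by -0.30. SESN3 differed by -0.19 without restricted 2 and restricted 4, and CCNG2 by -0.18 without elevated 5. PDK4, which turns cells from glucose to fat oxidation, differed by 0.43 (limma adjusted p = 0.441). IGFBP1 and KLF15, with signals under the array medians, differed by 0.15 and -0.16. Without elevated 5 these were -0.00028 and -0.35, and without restricted 2 and restricted 4 KLF15 differed by 0.15. PCK1, the gluconeogenic and glyceroneogenic enzyme, differed by -0.93 and by 0.054 without restricted 2 and restricted 4, where it read 8.78 and 8.42 while the rest of the restricted calves lay at 5.67 to 6.61.

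Of 14 TXNIP relatives, partners and regulators 8 averaged higher, with a median of 0.049 that was -0.014 without restricted 2 and restricted 4. ARRDC4, the closest arrestin relative of TXNIP and a shared target of the glucose-sensing factors, read 8.97 to 9.49 in elevated and 8.79 to 9.00 in restricted calves. Its difference was 0.28 ± 0.099 (SE; limma adjusted p = 0.390), and it was 0.29 without elevated 5, the calf with the highest TXNIP value, which read 9.10 for ARRDC4. ARRDC3 differed by 0.23, by 0.088 without elevated 5 and by 0.35 without restricted 2 and restricted 4. MLXIP, which encodes MondoA, differed by 0.045, and by 0.021 and 0.028 in the same reduced sets. MLXIPL, which encodes ChREBP, differed by -0.71 and by -0.075 without restricted 2 and restricted 4, where it read 8.10 and 7.47 while the rest of the restricted calves lay at 6.08 to 6.32. TXNIP and ARRDC4 therefore averaged higher in elevated calves while MLXIPL averaged lower, and none of these passed the test.

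**Figure D5:**
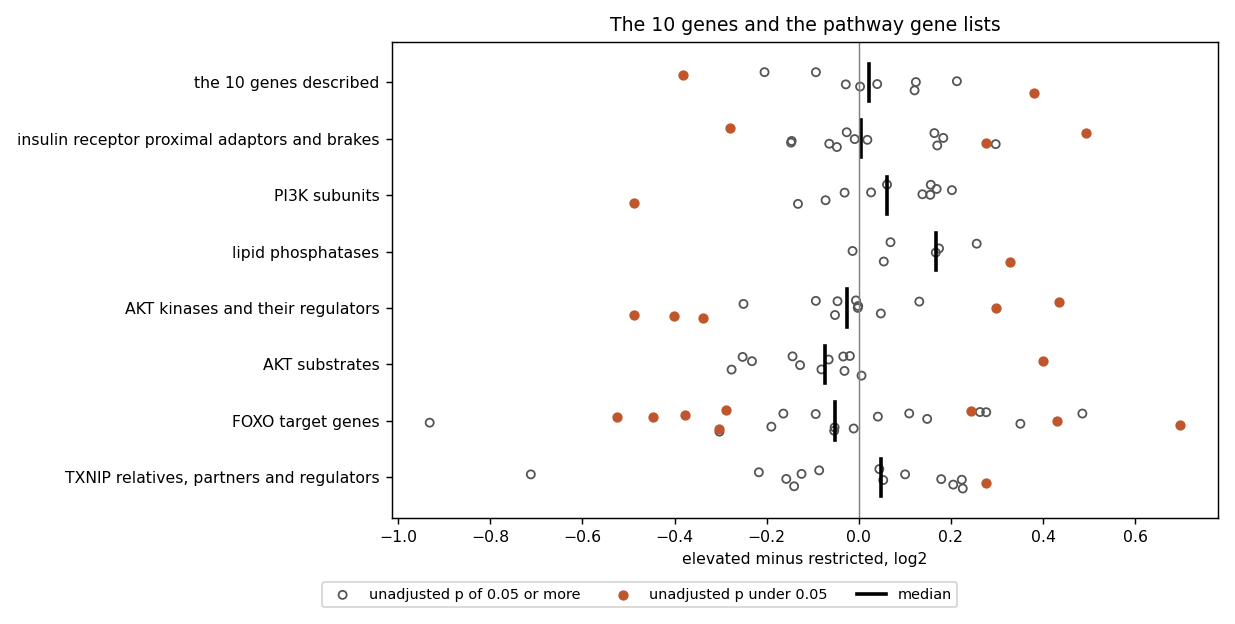
Difference between the diets (horizontal axis, elevated minus restricted, log2) for the 10 genes and for the 95 measured genes of 7 pathway lists (rows). Each point is a gene, filled where the unadjusted limma p is under 0.05, and black bars are medians. Every list straddles 0, the medians run from -0.073 to 0.17, and no gene passes after adjustment over all probe sets.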

How the data were processed

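The authors deposited log2 RMA values per probe set for 11 arrays, 1 per calf. The submitters' processing notes name RMA without a version; its settings and the genome build are not given there. Probe sets were named through the platform's gene table: 18790 had 1 symbol, 385 several and 7598 none here. All 10 genes kept their symbol in RefSeq's genes for ARS-UCD2.0. A gene with several probe sets was read by the one with the highest mean.

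The fit was limma 3.58.1 in R 4.3.3 (lmFit, eBayes), without filter or covariate, with p adjusted by Benjamini-Hochberg across the 26773 probe sets. It was tested on simulated data with the real spread. The labels describe calves as separate animals, so the spread is between animals, and the number of arrays limits the precision. Correlations are descriptions with no p. Coordinates and sequences are not given.

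Beside the 10 genes, the text names 28 pathway genes picked by role, and in each list the 2 genes with the smallest p. Members and lists were chosen with earlier results of these data known. Alternatives were median centring, quantile normalisation, leaving out dim (mean under 5) or unnamed probe sets, other variance models, array weights, the replicate number as a block, another threshold, and leaving out calves. Python 3.11.15 and matplotlib 3.10.9 made tables and figures.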

Additional observations from a re-analysis of the deposited data

How the results depend on the processing

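None of the 10 genes passed the threshold under any of 23 alternatives, and the smallest adjusted p was 0.257, for TXNIP. IRS1, AKT2, INSR, FOXO3 and TXNIP kept their direction under every alternative run, and 15 of 230 values for the 10 genes changed sign, those of IRS2, PIK3R1, PIK3CA, AKT1 and FOXO1. In some alternatives a gene's difference could not move, so its sign there was fixed in advance. These were leaving out dim or unnamed probe sets, the other variance models and averaging probe sets, and their values are among the 230. PIK3CA turned to -0.0026 with median centring, -0.038 with array weights and -0.044 without restricted 2, restricted 4 and elevated 5, and below 0 without elevated 5, restricted 1, restricted 2 or restricted 5. FOXO1 turned to 0.047 with the replicate block and without elevated 6, above 0 without elevated 1 or restricted 4, and to 0.10 without restricted 2 and restricted 4. The block and the fit without elevated 6 gave the same differences, because no restricted calf has the number of elevated 6. Both are counted among the 15. IRS2 and AKT1 turned below 0 without restricted 1, and PIK3R1 turned to 0.043 without restricted 2 and restricted 4. Leaving out single calves moved IRS2 between -0.0016 and 0.20, PIK3CA between -0.062 and 0.046, AKT1 between -0.018 and 0.11, FOXO1 between -0.13 and 0.047, TXNIP between 0.25 and 0.48, AKT2 between -0.46 and -0.22, and the median of the 10 genes between -0.031 and 0.076.

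Over all probe sets the count past the threshold was 1 with unnamed probe sets left out, 0 in an unmoderated model, 4 with array weights, 25 without restricted 2 and restricted 4, and 15 without these and elevated 5. It ran from 0 to 12 when single calves were left out, at 0 without elevated 1, elevated 3, restricted 1 or restricted 5, at 8 without restricted 2 and at 12 without elevated 4. With the replicate number as a block it was 0. The labels do not say that calves with the same number were paired. The correlations of their deviations from the group means ran from -0.15 to 0.21. Such correlations also carry the cell type make-up of each calf, so they cannot settle whether calves were paired. Pathway counts without restricted 2, restricted 4 or elevated 5 were added after seeing the data. Each gene has 1 probe set, so averaging probe sets changed nothing.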

Other observations

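Some pathway genes outside the naming rule, singled out after their values were seen, had an unadjusted p under 0.05. PPARGC1A, a coactivator of mitochondrial genes, read 7.87 ± 0.53 in elevated calves, against 7.17 ± 0.51 in restricted calves (mean and SD, n = 6 and 5), a difference of 0.70 (limma adjusted p = 0.440). Only elevated 5 (8.82) lay above the highest restricted calf, restricted 2 (8.00). TRIB1 and TRIB2, which encode related pseudokinases, went opposite ways, at 0.44 and -0.40 (limma adjusted p = 0.353 and 0.429). The catalase gene CAT differed by -0.38, the transcriptional repressor gene BCL6 by -0.45 and the cell cycle inhibitor gene CDKN1B by 0.24. CAT read 11.02 and 10.86 in restricted 2 and restricted 4, 10.26 to 10.33 in the other restricted calves and 9.95 to 10.37 in elevated calves. BCL6 read 9.36 and 9.23 in the same calves, 8.67 to 9.16 in the other restricted calves and 8.29 to 9.27 in elevated calves. GAB1, an adaptor of receptor tyrosine kinases, differed by 0.28. Elevated 5 was the highest calf for CDKN1B (8.96) and for GAB1 (10.72). After adjustment none of them passed.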
